A study of Rattus norvegicus with 34 samples.

Results

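The comparison describes how the transcripts of NRK-52E cells changed between 24 h and 72 h of culture with solvent and no test compound. NRK-52E is an immortal epithelial line from rat kidney, labelled as proximal tubule cells of Osborne-Mendel origin. The members are the 6 arrays labelled as DMSO cells of these times, 3 at 72 h and 3 at 24 h, out of 18 arrays of these cells and 34 arrays in the series. The cells were grown to confluence in 6-well plates in DMEM with fetal calf serum and then received DMSO at 0.1%, the vehicle that every culture of the study contained. RNA was taken from separate wells at 6, 24 or 72 h, and the labels call the 3 arrays of a time biological replicates. Beside them stand 3 DMSO arrays of 6 h and 3 arrays each of 72 h and 24 h from cells whose sample titles name monuron, a phenylurea herbicide. The treatment protocol names another compound, abbreviated CHL, for the cells, so the identity of the compound is in doubt. Whether the medium was renewed during the 72 h is not given in the sources used here.

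A confluent epithelial culture keeps its cells in contact, slows their division and can use up the nutrients and serum factors of its medium. Growth factors induce the immediate early genes and the machinery of DNA replication, sterol regulatory element-binding proteins drive the genes of cholesterol and fatty acid synthesis, and FOXO factors are active when insulin and growth signals are low. Lysosomes take up a larger share of the work when cells recycle their own material. The gene groups below follow these roles.

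The labelled cell type was checked against marker genes. Of 8 proximal tubule markers, 6 (Lrp2, Cubn, Slc34a1, Slc5a2, Slc22a6 and Slc22a8) lay below the array median on all 6 arrays, and so did 5 of 7 general epithelial markers, among them Cdh1, Epcam and Krt18. The log2 of the summed level of the proximal tubule markers was 6.35 to 8.07 at 72 h and 6.13 to 6.33 at 24 h. Its high values came from Aqp1, with log2 levels of 7.84, 7.00 and 3.09 at 72 h and 2.11, 2.40 and 2.12 at 24 h. Ggt1 was instead lower on replicates 1 and 2, with log2 levels of 3.41, 3.99 and 5.45 at 72 h and 5.32, 5.52 and 5.18 at 24 h. The log2 of the summed level of the general epithelial markers was 12.67 to 12.95 at 72 h and 13.74 to 13.78 at 24 h. Nearly all of it came from Krt8, a keratin of simple epithelia, with log2 levels of 12.78, 12.65 and 12.93 at 72 h and 13.75, 13.73 and 13.77 at 24 h. Of 9 fibroblast markers, Pdgfra, Pdgfrb, Thy1, Dcn, Lum and Fap never reached the array median, while Col1a1, Col3a1 and Postn lay above it on all 6 arrays. The log2 of their summed level was 13.25 to 14.66 at 72 h and 13.93 to 14.02 at 24 h, and the collagen Col3a1, which carried most of it, had log2 levels of 14.55, 14.48 and 12.86 at 72 h and 13.65, 13.70 and 13.60 at 24 h. Of 6 smooth muscle and pericyte markers, Myh11, Cnn1 and Rgs5 never reached the median, and the log2 of the summed level, led by the smooth muscle actin Acta2, was 10.29 to 11.85 at 72 h and 11.29 to 11.52 at 24 h. Of 4 podocyte markers Wt1 and Synpo lay above the median on all 6 arrays and Nphs1 and Podxl on none, and of 6 endothelial markers 5 were never above it. The part of these markers in the results was not tested. None of the 6 loop and distal tubule markers and none of the 7 collecting duct markers reached the array median at either time. In the leukocyte list 7 of 8 markers stayed below it, with Cd14 as the exception.

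The 72 h arrays differed among themselves more than the 24 h arrays did. Replicate 3 of 72 h lay more than 1 log2 unit from both other 72 h arrays in 416 of 9042 genes, replicate 1 in 181 and replicate 2 in 39, against 6 to 18 genes for the 24 h arrays. Across 31042 probe sets its correlation with the other 72 h arrays was 0.987 and 0.992, and with the 24 h arrays 0.991 to 0.992. With the monuron arrays of 24 h, described below, its correlation was 0.993 to 0.994 and lay above its correlation with every other DMSO array, against 0.986 to 0.991 for replicates 1 and 2. With the monuron arrays of 72 h it was 0.983 to 0.991, against 0.965 to 0.984 for replicates 1 and 2. Counts over gene lists are given with and without 72 h replicate 3. Of the genes with values below, 91 were called, and 91 of them were also called in the same direction without that array. The genes of largest change were chosen partly for being called without it, so this agreement was in part set by the choice. Over all genes, 277 of the 2526 calls were lost without that array. The log2 change without it is given where the fold moved by more than 1.5 times or the call changed. Whether culture, RNA or array handling set this array apart was not tested.

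Of 9042 genes, 2526 (27.9%) differed between 72 h and 24 h at an adjusted p under 0.05 (limma, Benjamini-Hochberg adjustment over all genes tested). Transcripts of 1046 genes (11.6%) were higher at 72 h and those of 1480 (16.4%) were lower, while 387 of the calls were at least 2-fold, 116 of them higher and 271 lower. In 3339 genes (36.9%) the 3 arrays of 72 h did not overlap the 3 of 24 h. Without 72 h replicate 3 the test called 3403 genes (37.6%), with 1299 (14.4%) higher and 2104 (23.3%) lower. The 2 sets shared 2249 genes with the same direction, and 0 genes were called in opposite directions. The median log2 change over all genes was -0.04, or -0.06 without replicate 3. Other fits called fewer genes than the 2526. The number was 1735 without 24 h replicate 1 and 1661 with only the 9 DMSO arrays. It was 897 with only the 6 arrays of the comparison, 355 higher and 542 lower. Array weights, whose estimation stopped before its tolerance, gave 1373. The share of genes called thus depended on the choice of fit.

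Klf15 had the largest rise among the genes that passed with and without replicate 3. This transcription factor is induced by glucocorticoids and fasting in several tissues. Its log2 level was 9.56, 8.08 and 8.89 on the 72 h arrays and 5.81, 5.76 and 6.03 on the 24 h arrays, so every 72 h array lay well above every 24 h array. The log2 change was 2.98 ± 0.24 (SE of the limma fit, n = 3 each), a 7.87-fold rise, with an adjusted p of 1.0e-06. It was 2.95 without replicate 3. This SE, like those below, draws on the spread of all 18 NRK-52E arrays and is not the scatter of the printed values alone.

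Cd55, a surface protein that protects cells from complement, had log2 levels of 10.03, 10.18 and 9.48 at 72 h and 6.96, 7.10 and 7.18 at 24 h. The groups were far apart, and the log2 change of 2.82 ± 0.21 (adjusted p = 4.7e-07) became 3.02 without replicate 3. Fxyd1, a regulator of the sodium pump, had log2 levels of 8.34, 9.31 and 7.00 at 72 h and 5.58, 5.57 and 5.57 at 24 h. Its 72 h arrays were spread over more than 2 log2 units yet all lay above the 24 h arrays, with a log2 change of 2.64 ± 0.44 (adjusted p = 3.9e-04), or 3.25 without replicate 3. Pmp22, a membrane protein first described as a growth arrest gene in fibroblasts, had log2 levels of 9.77, 9.37 and 8.81 at 72 h and 7.32, 7.37 and 7.17 at 24 h. It rose by a log2 change of 2.03 ± 0.23 (adjusted p = 1.4e-05). Fmod, the collagen-binding proteoglycan fibromodulin, had log2 levels of 7.41, 6.18 and 5.14 at 72 h and 4.34, 3.97 and 3.92 at 24 h, and its log2 change was 2.16 with replicate 3 and 2.72 without it. On the 24 h arrays Fmod lay below the array median on 2, and setting such values to the median gave 2.04. The further genes among the 12 largest rises were C19h16orf74, Rtn1, Klhl29, Exph5, Sema3b, C1qtnf5 and Mtus2, with log2 changes between 2.05 and 2.58. Klhl29 was below the array median on all 3 arrays of 24 h, and its log2 change of 2.32 was 1.14 with low values set to the median. The Mtus2 change was 2.75 without replicate 3, and its call was lost in the fit of the 6 arrays of 72 h and 24 h alone.

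**Figure D1:**
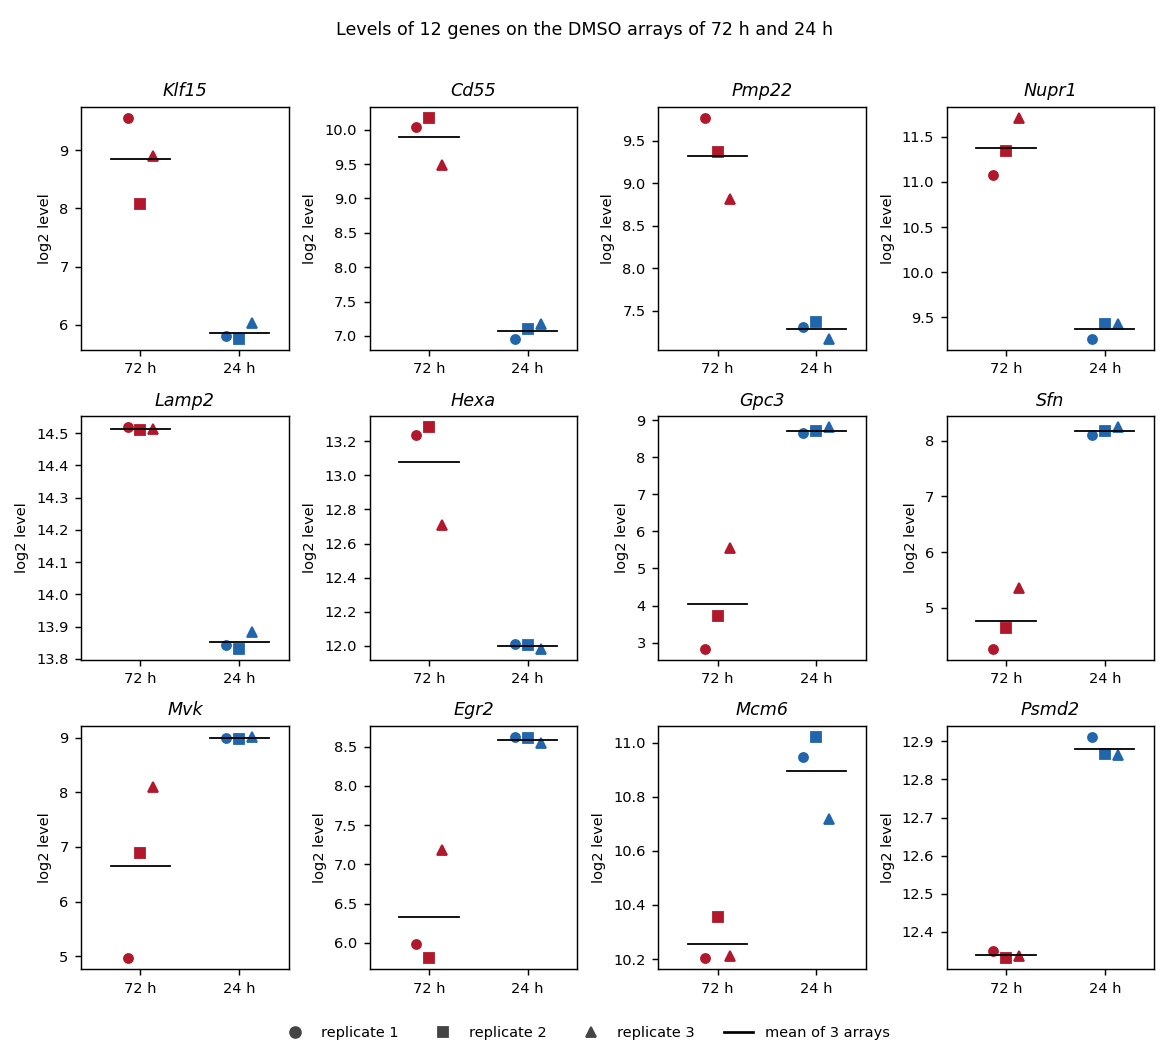
Each panel plots the log2 level (vertical axis) of 1 gene on the 3 DMSO arrays of 72 h (red, left) and the 3 of 24 h (blue, right), with bars at the group means and a scale of its own. Klf15, Cd55, Pmp22, Nupr1, Lamp2 and Hexa lie higher at 72 h, Gpc3, Sfn, Mvk, Egr2, Mcm6 and Psmd2 lie lower, and the 2 groups overlap in none of the 12 genes. Klf15, Cd55, Pmp22, Gpc3 and Sfn were chosen among genes without overlap, and the others for a small adjusted p in their gene list. Over all genes the groups did not overlap in 36.9%.

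The largest falls were deeper than the largest rises. Gpc3, the cell surface proteoglycan glypican 3, had log2 levels of 2.84, 3.73 and 5.55 at 72 h and 8.65, 8.70 and 8.80 at 24 h. On 2 of the 72 h arrays it was below the array median, where this scale separates levels poorly. The log2 change was -4.68 ± 0.47 (adjusted p = 5.3e-06), -5.43 without replicate 3, and -4.09 when values below the array median were set to that median. Poteml2, a gene named by the array annotation, had log2 levels of 4.13, 3.05 and 7.39 at 72 h and 9.80, 9.68 and 9.66 at 24 h. Replicates 1 and 2 of 72 h lay below the array median and replicate 3 above it. The log2 change was -4.86 with replicate 3, -6.12 without it, and -4.47 with low values set to the median.

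Slc17a6, a vesicular glutamate transporter of neurons, had log2 levels of 2.77, 2.78 and 4.80 at 72 h and 6.91, 6.96 and 6.70 at 24 h, with a log2 change of -3.41 ± 0.40 (adjusted p = 2.3e-05), or -4.09 without replicate 3. Replicates 1 and 2 of 72 h lay below the array median, and the change was -2.49 with such values set to the median. Sfn encodes 14-3-3 sigma, an epithelial checkpoint protein, and had log2 levels of 4.27, 4.64 and 5.36 at 72 h and 8.09, 8.17 and 8.24 at 24 h. All 3 arrays of 72 h lay more than 2 log2 units below the 24 h arrays, and the log2 change was -3.41 ± 0.29 (adjusted p = 1.6e-06). Mbnl3, an RNA-binding protein of the muscleblind family, had log2 levels of 4.60, 4.47 and 5.94 at 72 h and 7.54, 7.80 and 7.82 at 24 h, with a log2 change of -2.72 ± 0.34 (adjusted p = 4.3e-05).

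The spread among the 72 h arrays was wide in some of these genes. Acta1, skeletal muscle actin, had log2 levels of 2.85, 5.44 and 7.06 at 72 h and 7.63, 7.71 and 7.71 at 24 h, so its fall ranged from small on replicate 3 to large on replicate 1. Its log2 change was -2.57 ± 0.63 (adjusted p = 0.0066), or -3.54 without replicate 3, and the call was lost when only the 6 arrays of the comparison or only the 9 DMSO arrays were fitted. Chst4, Gadl1, Erhl1, Izumo4, Padi3 and Slc7a9 complete the 12 largest falls, with log2 changes between -3.49 and -2.79. Without replicate 3 the changes were -2.41 for Gadl1, -1.96 for Erhl1 and -3.72 for Izumo4, and the Erhl1 call was lost in the fit of the 6 arrays. All 6 had 72 h values below the array median, and so had Acta1 on 1 array. With these set to the median the changes were -3.09 for Chst4, -1.88 for Gadl1, -2.80 for Erhl1, -2.07 for Izumo4, -2.08 for Padi3 and -2.13 for Acta1, and that of Slc7a9 is given with the proximal tubule genes.

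Cholesterol synthesis genes were lower at 72 h. In the list of cholesterol synthesis and uptake genes, 14 of 20 tested members were lower and 0 were higher, against 16.4% and 11.6% of all genes, and their median log2 change was -1.09. Without 72 h replicate 3 the count was 19 of 20 lower, against 23.3% of all genes, with a median of -1.71. The list mean differed widely among the 72 h arrays: its log2 level was 9.14, 10.45 and 11.62 on the 72 h arrays and 11.62, 11.62 and 11.63 on the 24 h arrays. Replicate 1 held the lowest 72 h value in 19 of the 20 genes and replicate 3 the highest in all 20, with a list mean equal to that of the 24 h arrays. The count fell to 8 without 72 h replicate 1 and 9 without 72 h replicate 2. It was 5, 4 and 6 without 24 h replicate 1, 2 and 3. In limma it was 0 when only the 6 arrays of the comparison were fitted, against 542 of all 9042 genes called lower in that fit. There the error came from these arrays alone, and 5 members had an unadjusted p under 0.05.

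Mvk, the mevalonate kinase of the early pathway, had log2 levels of 4.96, 6.89 and 8.09 at 72 h and 9.00, 8.97 and 9.01 at 24 h. All 72 h arrays were below the 24 h arrays, by amounts that differed more than 3 log2 units among them, and the log2 change was -2.34 ± 0.48 (adjusted p = 0.0020). Sqle, the squalene epoxidase, had log2 levels of 10.16, 11.15 and 12.36 at 72 h and 12.66, 12.63 and 12.76 at 24 h, with a log2 change of -1.46 ± 0.32 (adjusted p = 0.0033). In the late steps, Nsdhl had log2 levels of 8.34, 9.61 and 10.82 at 72 h and 11.67, 11.52 and 11.15 at 24 h, and Ebp had log2 levels of 8.32, 9.54 and 10.72 at 72 h and 11.10, 11.21 and 11.01 at 24 h. The order of the 72 h arrays was the same in all 4 genes, with replicate 3 nearest to the 24 h arrays. Their log2 changes without replicate 3 were -3.06 for Mvk, -2.03 for Sqle, -2.47 for Nsdhl and -2.18 for Ebp.

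Fatty acid synthesis genes were lower as well, in 9 of 16 tested members with 0 higher, against 16.4% and 11.6% of all genes, and with a median log2 change of -0.84, or 12 of 16 and -1.20 without replicate 3. In the fit of the 6 arrays 2 of 16 were lower, against 542 of all 9042 genes in that fit. Fasn, the fatty acid synthase, had log2 levels of 9.96, 10.76 and 11.25 at 72 h and 11.86, 11.81 and 11.68 at 24 h. Acaca, the acetyl-CoA carboxylase that makes malonyl-CoA, had log2 levels of 9.75, 10.01 and 10.63 at 72 h and 11.09, 11.06 and 10.87 at 24 h, and Me1, the malic enzyme that supplies NADPH, had log2 levels of 9.29, 10.22 and 10.72 at 72 h and 11.44, 11.39 and 11.22 at 24 h. The groups did not overlap in any of these 3 genes, which were named for a small adjusted p. The list mean had a log2 level of 8.87, 9.40 and 10.37 at 72 h and 10.43, 10.39 and 10.36 at 24 h. Replicate 3 of 72 h thus lay among the 24 h arrays, and the fall of the list mean was that of replicates 1 and 2. The log2 changes were -1.13 ± 0.20 (adjusted p = 7.7e-04) for Fasn, -0.87 ± 0.15 (adjusted p = 6.0e-04) for Acaca and -1.27 ± 0.22 (adjusted p = 5.8e-04) for Me1, and all 3 calls were lost in the fit of 6 arrays. Among fatty acid oxidation genes, 2 of 16 were higher and 2 lower, against 11.6% and 16.4% of all genes. Without replicate 3 the counts were 3 and 2, against 14.4% and 23.3%. The lower count was 0 without 72 h replicate 2, 24 h replicate 1 or 24 h replicate 2. Pdk4, the kinase that shuts off pyruvate dehydrogenase when fat is burned, was among the higher ones, with log2 levels of 8.98, 8.83 and 8.29 at 72 h and 6.93, 7.28 and 7.08 at 24 h and a log2 change of 1.60 ± 0.16 (adjusted p = 5.3e-06).

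In the glycolysis and hypoxia list 8 of 26 tested members were lower and 0 higher, against 16.4% and 11.6% of all genes. The median log2 change was -0.20. Without replicate 3 the lower count was 19 of 26, against 23.3% of all genes, and the median -0.49. The list mean had a log2 level of 9.95, 10.14 and 10.78 at 72 h and 10.74, 10.73 and 10.72 at 24 h. It was thus lower on replicates 1 and 2 of 72 h and not on replicate 3. Gpi, the second enzyme of glycolysis, had log2 levels of 12.71, 12.58 and 12.89 at 72 h and 13.32, 13.27 and 13.39 at 24 h, and its log2 change was -0.60 ± 0.08 (adjusted p = 3.9e-05). Enolase, Eno1, had log2 levels of 12.79, 12.74 and 13.20 at 72 h and 13.55, 13.57 and 13.61 at 24 h, and lactate dehydrogenase A, Ldha, had 13.29, 13.34 and 13.33 at 72 h and 13.79, 13.74 and 13.76 at 24 h. These enzymes fell by less than 1 log2 unit, with little spread among the 72 h arrays of Ldha. Pfkfb4, which makes and breaks down the activator of phosphofructokinase, had log2 levels of 4.70, 5.72 and 7.01 at 72 h and 8.00, 8.14 and 8.15 at 24 h, and fell by more, with a log2 change of -2.29 ± 0.39 (adjusted p = 4.8e-04), or -2.89 without replicate 3. Slc2a1, the glucose transporter GLUT1, had log2 levels of 8.13, 9.14 and 10.45 at 72 h and 10.19, 10.15 and 10.19 at 24 h. Replicate 3 lay above the 24 h arrays and the others below them, and the log2 change was -0.94 (adjusted p = 0.055) with it and -1.55 (adjusted p = 1.6e-05) without it.

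**Figure D2:**
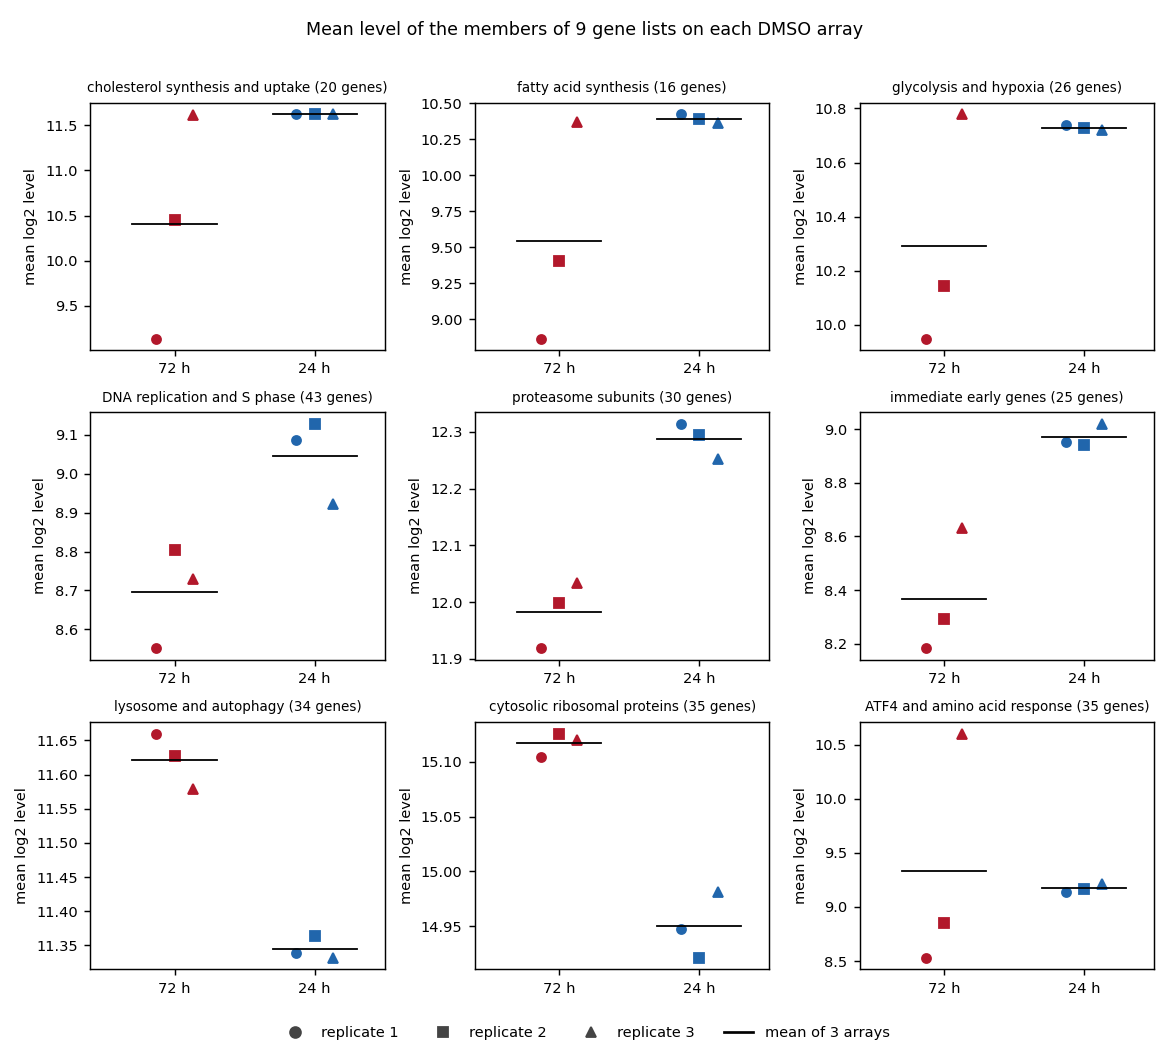
Each panel plots the mean log2 level (vertical axis) of the tested members of 1 gene list on the 3 DMSO arrays of 72 h (red, left) and the 3 of 24 h (blue, right), with bars at the group means. Cholesterol synthesis spans 9.14 to 11.62 at 72 h while its 24 h arrays lie together, and in the ATF4 panel 72 h replicate 3 stands above all other arrays at 10.60.

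Genes of DNA replication were among the lower ones at 72 h. In this list, 21 of 43 tested members were lower and 0 higher, against 16.4% and 11.6% of all genes, with a median log2 change of -0.41. Without replicate 3 the count was 22 lower and 1 higher, against 23.3% and 14.4%. The count of lower members was 12 without 72 h replicate 1, 11 without 24 h replicate 1 and 10 without 24 h replicate 2. In the fit of the 6 arrays it was 5 of 43, against 542 of all 9042 genes in that fit. Mcm6, a subunit of the replicative helicase, had log2 levels of 10.20, 10.36 and 10.21 at 72 h and 10.95, 11.02 and 10.72 at 24 h. Cdt1, which loads that helicase at origins, had log2 levels of 10.00, 10.45 and 10.18 at 72 h and 10.92, 10.90 and 10.83 at 24 h. In both genes the groups were separate, with log2 changes of -0.64 ± 0.09 (adjusted p = 7.7e-05) for Mcm6 and -0.68 ± 0.10 (adjusted p = 1.3e-04) for Cdt1. Ccne1, cyclin E1, which drives entry into S phase, had log2 levels of 9.03, 8.64 and 8.46 at 72 h and 9.51, 9.38 and 9.28 at 24 h. Uhrf1, which keeps DNA methylation through replication, had log2 levels of 7.56, 7.65 and 8.20 at 72 h and 8.53, 8.67 and 8.29 at 24 h. Their log2 changes were -0.68 (adjusted p = 6.1e-04) for Ccne1 and -0.70 (adjusted p = 0.0020) for Uhrf1, neither called in the fit of the 6 arrays.

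Replication genes are textbook targets of E2F, whose binding motif TTTNGCGC was searched on both strands in the RefSeq promoter windows (GRCr8, 250 bases before to 50 after the annotated start). Windows were found for 37 of the 43 replication genes, and 13 of these 37 (35.1%) held the motif, against 377 of 27457 windows of all genes (1.37%). Of the 13 genes with the motif 9 were lower at 72 h, and of the 24 without it 9 were lower. The 3 windows shown belong to the genes with the motif and the smallest adjusted p, a choice made after their values were seen. The capitals mark the motif, which overlaps its own reverse complement in Mcm6 and Mcm2, and each window runs 5′ to 3′ along the gene's strand.
Mcm6, chr13:42404303-42404602, minus strand: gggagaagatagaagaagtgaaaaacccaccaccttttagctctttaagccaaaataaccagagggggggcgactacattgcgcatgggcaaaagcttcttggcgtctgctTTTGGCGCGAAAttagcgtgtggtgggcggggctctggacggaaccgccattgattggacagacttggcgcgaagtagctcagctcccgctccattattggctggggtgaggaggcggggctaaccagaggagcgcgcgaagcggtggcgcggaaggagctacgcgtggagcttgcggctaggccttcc
Cdt1, chr19:67528999-67529298, plus strand: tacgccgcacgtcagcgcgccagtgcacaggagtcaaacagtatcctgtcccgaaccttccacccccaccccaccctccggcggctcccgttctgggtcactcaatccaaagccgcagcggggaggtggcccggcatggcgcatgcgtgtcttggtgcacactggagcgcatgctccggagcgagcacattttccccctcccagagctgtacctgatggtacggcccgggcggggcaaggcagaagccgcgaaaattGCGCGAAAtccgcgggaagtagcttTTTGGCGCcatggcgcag
Mcm2, chr4:122918045-122918344, minus strand: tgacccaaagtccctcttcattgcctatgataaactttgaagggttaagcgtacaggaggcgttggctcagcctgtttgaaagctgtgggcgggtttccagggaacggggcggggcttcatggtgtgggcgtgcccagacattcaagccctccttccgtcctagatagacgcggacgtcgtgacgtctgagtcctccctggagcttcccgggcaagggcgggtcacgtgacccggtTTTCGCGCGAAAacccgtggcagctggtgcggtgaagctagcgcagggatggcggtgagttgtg
Mcm2, another helicase subunit, had log2 levels of 9.96, 9.95 and 9.52 at 72 h and 10.37, 10.40 and 10.23 at 24 h, with a log2 change of -0.52 ± 0.11 (adjusted p = 0.0027) that was not called in the fit of the 6 arrays. A match is a description of these letters and not a bound site. The sterol regulatory motif TCACNCCAC, searched in the same way, was in 0 of 16 windows of the cholesterol list and 0 of 13 of the fatty acid list, against 310 of 27457 windows (1.13%).

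Few mitotic genes passed the test between these times. Of 44 tested members 4 were lower and 1 higher, against 16.4% and 11.6% of all genes, with a median log2 change of -0.24. The lower members were 2 without 72 h replicate 1, 8 without 72 h replicate 2, 8 without 72 h replicate 3 (with 1 higher) and 15 without replicate 3 of the monuron arrays of 72 h, which share the estimate of the spread. Ccnb1, the cyclin that triggers mitosis, had log2 levels of 10.08, 10.36 and 10.45 at 72 h and 11.20, 11.14 and 10.91 at 24 h, a log2 change of -0.79 ± 0.14 (adjusted p = 6.4e-04). Cenpe, a kinetochore motor, had log2 levels of 5.82, 6.70 and 6.30 at 72 h and 7.40, 7.64 and 7.20 at 24 h. Mki67, the proliferation marker Ki-67, had log2 levels of 11.29, 11.54 and 11.20 at 72 h and 11.57, 11.45 and 11.46 at 24 h, and these overlapped (log2 change -0.16, adjusted p = 0.38).

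Among genes tied to quiescence and FOXO, 9 of 26 tested members were higher and 4 lower, against 11.6% and 16.4% of all genes, or 11 and 4 without replicate 3. Without 72 h replicate 2 or without 24 h replicate 1 the lower members were 2. Txnip, which binds thioredoxin and restrains glucose uptake, had log2 levels of 12.93, 13.09 and 12.42 at 72 h and 11.62, 11.56 and 11.82 at 24 h, with a log2 change of 1.15 ± 0.14 (adjusted p = 2.4e-05). Ccng2, a cyclin of arrested cells, had log2 levels of 12.59, 12.30 and 12.31 at 72 h and 11.87, 11.79 and 11.74 at 24 h, with a log2 change of 0.60 ± 0.08 (adjusted p = 7.7e-05). The list held falls too: Sesn3, a stress sensor that restrains mTORC1, had log2 levels of 7.09, 7.17 and 7.91 at 72 h and 8.87, 8.71 and 8.42 at 24 h, with a log2 change of -1.28 ± 0.19 (adjusted p = 1.2e-04). Klf15, described above, is a member of this list.

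Immediate early genes, the first to respond to growth factors, were lower in 11 of 25 tested members and higher in 3, against 16.4% and 11.6% of all genes. Their median log2 change was -0.47. Without replicate 3 the counts were 14 and 5, against 23.3% and 14.4%. Junb, a subunit of the AP-1 factor, had log2 levels of 8.90, 9.20 and 9.23 at 72 h and 10.37, 10.35 and 10.42 at 24 h. Fos, its partner, had log2 levels of 10.23, 11.29 and 10.97 at 72 h and 12.01, 12.02 and 12.11 at 24 h. Both were lower on every 72 h array, with log2 changes of -1.27 ± 0.12 (adjusted p = 4.5e-06) for Junb and -1.22 ± 0.17 (adjusted p = 1.0e-04) for Fos. Egr2, a zinc finger factor of the same response, had log2 levels of 5.99, 5.80 and 7.18 at 72 h and 8.62, 8.61 and 8.54 at 24 h, the largest of these falls with a log2 change of -2.26 ± 0.31 (adjusted p = 7.6e-05). Dusp1, the phosphatase that ends MAP kinase signals, had log2 levels of 11.57, 11.26 and 11.28 at 72 h and 12.25, 12.22 and 12.43 at 24 h.

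Of 35 tested genes of the actin cytoskeleton and targets of YAP and SRF, 9 were lower and 2 higher, against 16.4% and 11.6% of all genes. Without replicate 3 the counts were 19 and 3, against 23.3% and 14.4%. The higher members were 1 without 24 h replicate 1. The list mean had a log2 level of 11.10, 11.48 and 11.70 at 72 h and 11.64, 11.64 and 11.67 at 24 h. It was thus lower on replicates 1 and 2 of 72 h and not on replicate 3. The genes that follow were named for a small adjusted p. Myh9, non-muscle myosin, had log2 levels of 12.77, 12.96 and 13.16 at 72 h and 13.50, 13.58 and 13.44 at 24 h, and Flna, which cross-links actin, had 12.17, 12.08 and 12.37 at 72 h and 12.72, 12.73 and 12.69 at 24 h. Pdlim7, an adaptor on actin fibres, had log2 levels of 9.45, 10.09 and 10.43 at 72 h and 11.32, 11.17 and 11.13 at 24 h. The 3 genes fell on every 72 h array, by log2 changes of -0.54 (adjusted p = 1.5e-04) for Myh9, -0.50 (adjusted p = 2.3e-04) for Flna and -1.22 (adjusted p = 2.9e-04) for Pdlim7.

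Of 12 tested genes for epithelial junctions and keratins, 7 were lower and 0 higher, against 16.4% and 11.6% of all genes. Their median log2 change was -0.50. The lower members were 8 without 72 h replicate 3 and 4 without 24 h replicate 2. Krt8 had log2 levels of 12.78, 12.65 and 12.93 at 72 h and 13.75, 13.73 and 13.77 at 24 h, with a log2 change of -0.96 ± 0.09 (adjusted p = 3.9e-06). Lama3, a laminin chain of the basement membrane, had log2 levels of 4.04, 5.36 and 5.64 at 72 h and 7.40, 7.73 and 7.19 at 24 h, a deeper fall with a log2 change of -2.43 ± 0.32 (adjusted p = 5.3e-05). Jup, the plakoglobin of desmosomes, had log2 levels of 11.41, 11.58 and 11.58 at 72 h and 11.99, 11.89 and 11.90 at 24 h. In a culture of 1 line these values cannot tell fewer cells with a transcript from less of it per cell, which holds for every result here. Wnt4, a signal of kidney epithelium in development, had log2 levels of 4.25, 5.02 and 4.39 at 72 h and 6.37, 6.91 and 6.34 at 24 h, with a log2 change of -1.99 ± 0.21 (adjusted p = 9.6e-06). Tgfb3, a ligand of the TGF-beta receptor, had log2 levels of 11.38, 11.48 and 11.11 at 72 h and 12.24, 12.28 and 12.18 at 24 h, and Tgfb2, another ligand, had 10.29, 10.44 and 10.67 at 72 h and 11.11, 11.16 and 11.05 at 24 h. Both ligands fell, by log2 changes of -0.91 ± 0.09 (adjusted p = 5.2e-06) for Tgfb3 and -0.64 ± 0.09 (adjusted p = 7.4e-05) for Tgfb2. Of 21 tested TGF-beta and BMP targets 3 were higher and 4 lower, against 11.6% and 16.4% of all genes, or 4 and 5 without replicate 3.

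Lysosomal enzymes were among the higher genes. In the lysosome and autophagy list 14 of 34 tested members were higher and 0 lower, against 11.6% and 16.4% of all genes. Without replicate 3 the counts were 15 and 1, against 14.4% and 23.3%. The higher count was 12 to 15 over the 6 fits that each left out an array. Lamp2, a membrane protein that coats the lysosome, had log2 levels of 14.52, 14.51 and 14.51 at 72 h and 13.84, 13.83 and 13.88 at 24 h. The arrays of each time lay close together, and the log2 change was 0.66 ± 0.04 (adjusted p = 1.5e-07). Hexa, a hexosaminidase that degrades gangliosides, had log2 levels of 13.24, 13.28 and 12.71 at 72 h and 12.01, 12.01 and 11.98 at 24 h, with a log2 change of 1.07 ± 0.11 (adjusted p = 9.6e-06). The protease Ctsl had log2 levels of 14.57, 14.62 and 14.69 at 72 h and 14.07, 14.04 and 14.02 at 24 h, and the protease Lgmn had 12.86, 12.69 and 12.48 at 72 h and 11.99, 12.01 and 11.86 at 24 h. Each 72 h array was above each 24 h array in these 4 genes.

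The CLEAR motif TCACGTGA, recognised by the lysosomal regulator TFEB and equal to its own reverse complement, was in 4 of the 27 lysosome list windows found (14.8%), against 238 of 27457 windows (0.867%). Of the 4 genes, Ctsd was called higher, and Atp6v0d1, Lamp1 and Mcoln1 were not called. The Ctsd window is shown for that reason, with the motif in capitals.
Ctsd, chr1:206968772-206969071, minus strand: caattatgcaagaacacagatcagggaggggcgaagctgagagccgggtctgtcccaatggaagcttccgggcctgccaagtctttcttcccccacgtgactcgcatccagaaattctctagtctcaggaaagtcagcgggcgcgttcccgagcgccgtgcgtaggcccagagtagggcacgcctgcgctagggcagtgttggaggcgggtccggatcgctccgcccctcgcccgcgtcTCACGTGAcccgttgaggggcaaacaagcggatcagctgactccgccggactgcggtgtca
Ctsd encodes the protease cathepsin D. Its log2 levels were 12.72, 12.54 and 12.58 at 72 h and 12.22, 12.24 and 12.15 at 24 h, with a log2 change of 0.41 ± 0.06 (adjusted p = 1.5e-04).

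Ribosomal protein genes rose by small and even amounts, with a median log2 change of 0.15. Of 35 tested members 26 were higher and 0 lower, against 11.6% and 16.4% of all genes. Without replicate 3 the count was 22, and with the arrays centred on their medians it was 19 with a median of 0.16. In the fit of the 6 arrays it was 4, against 355 of all 9042 genes called higher in that fit. Rpl35a had log2 levels of 14.90, 14.97 and 14.98 at 72 h and 14.62, 14.63 and 14.67 at 24 h, and Rpl23a had 15.61, 15.70 and 15.57 at 72 h and 15.33, 15.35 and 15.31 at 24 h. The log2 changes were 0.31 ± 0.04 (adjusted p = 5.0e-05) for Rpl35a and 0.30 ± 0.05 (adjusted p = 5.8e-04) for Rpl23a, at signals near the top of the array's range. Of 33 tested translation factors 4 were higher and 7 lower, against 11.6% and 16.4% of all genes, or 2 and 9 without replicate 3. The higher members were also 2 without 24 h replicate 1 or without 24 h replicate 2. Eif4a1, the main RNA helicase of translation initiation, had log2 levels of 13.09, 12.94 and 12.88 at 72 h and 13.57, 13.52 and 13.45 at 24 h, a fall with a log2 change of -0.54 ± 0.06 (adjusted p = 9.6e-06).

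Proteasome subunits fell together, in 20 of 30 tested members with 0 higher, against 16.4% and 11.6% of all genes. Their median log2 change was -0.32. Without replicate 3 the count was 20 as well, and leaving out any of the 6 arrays gave 18 to 20. The fit of the 6 arrays gave 11 of 30, against 542 of all 9042 genes called lower in that fit. Psmd2, of the regulatory cap, had log2 levels of 12.35, 12.33 and 12.34 at 72 h and 12.91, 12.87 and 12.87 at 24 h, with a log2 change of -0.54 ± 0.05 (adjusted p = 2.5e-06). Psmc5, an ATPase of the cap, had log2 levels of 10.31, 10.34 and 10.54 at 72 h and 10.98, 10.92 and 10.78 at 24 h. Psmb3, of the proteolytic core, had log2 levels of 12.11, 12.19 and 12.16 at 72 h and 12.64, 12.68 and 12.62 at 24 h. The groups were separate in all 3 subunits, with log2 changes of -0.50 for Psmc5 (adjusted p = 2.0e-04) and -0.50 for Psmb3 (adjusted p = 2.2e-04). Of 55 tested respiratory chain subunits 5 were higher and 12 lower, against 11.6% and 16.4% of all genes, or 7 and 11 without replicate 3. The lower count was 7 without 24 h replicate 1 and 7 without 24 h replicate 2. The higher count was 3 without 72 h replicate 2 or 24 h replicate 2. Ndufa1, of complex I, had log2 levels of 14.44, 14.34 and 14.21 at 72 h and 13.79, 13.76 and 13.82 at 24 h, a rise with a log2 change of 0.54 ± 0.06 (adjusted p = 2.3e-05).

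**Figure D3:**
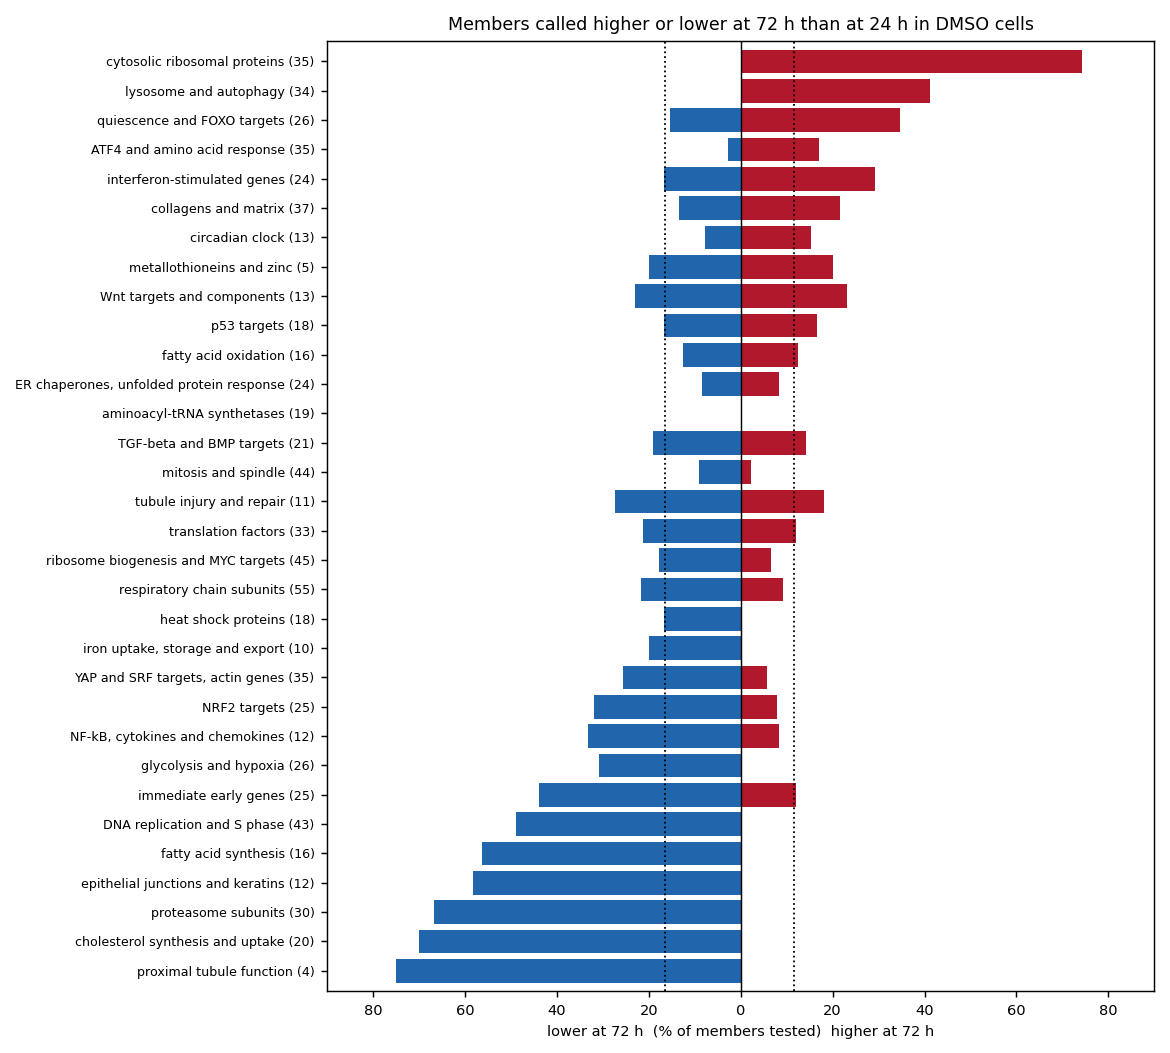
The bars give, for 32 gene lists, the percentage of tested members (horizontal axis) called higher (red, right) or lower (blue, left) at 72 h than at 24 h, with the number of tested members in brackets. Dotted lines mark the shares over all genes, 11.6% higher and 16.4% lower. Ribosomal proteins and lysosome genes reach furthest to the right, and cholesterol synthesis, proteasome and epithelial junction genes, with the 4 tested genes of the proximal tubule, furthest to the left.

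The genes of the amino acid response, driven by the factor ATF4 when amino acids run short or proteins misfold, depended on 72 h replicate 3. That array held the highest value of all 6 arrays in 33 of the 35 tested members and in 2328 of all 9042 genes. The mean log2 level of the list was 8.53, 8.85 and 10.60 at 72 h and 9.14, 9.17 and 9.21 at 24 h. On the monuron arrays it was 11.23, 11.35 and 11.58 at 72 h and 10.38, 10.23 and 10.21 at 24 h. With replicate 3, 6 members were higher and 1 lower, against 11.6% and 16.4% of all genes, with a median log2 change of 0.15. Without it 6 were higher and 19 lower, against 14.4% and 23.3%, with a median of -0.44. The higher members were 9 without 72 h replicate 1 and 4 without 24 h replicate 1.

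Atf4 itself had log2 levels of 12.08, 12.37 and 14.08 at 72 h and 12.83, 12.76 and 12.88 at 24 h. Asns, the asparagine synthetase, had log2 levels of 9.87, 10.46 and 13.15 at 72 h and 10.96, 10.90 and 11.04 at 24 h, and Trib3, a pseudokinase induced late in this response, had 5.60, 6.86 and 11.44 at 72 h and 7.79, 7.70 and 7.97 at 24 h. In each of the 3 genes replicate 3 lay above the 24 h arrays and the other 72 h arrays lay below them. Without replicate 3 the log2 changes were -0.60 (adjusted p = 1.1e-04) for Atf4, -0.81 (adjusted p = 8.6e-05) for Asns and -1.59 (adjusted p = 0.0014) for Trib3. Atf3, another factor of the response, had log2 levels of 3.62, 4.42 and 9.25 at 72 h and 6.54, 6.60 and 6.78 at 24 h, with the same order of arrays.

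Other members of the list were higher on all 72 h arrays. Nupr1, a small stress-induced chromatin protein, had log2 levels of 11.08, 11.34 and 11.71 at 72 h and 9.26, 9.43 and 9.43 at 24 h, with a log2 change of 2.00 ± 0.12 (adjusted p = 1.3e-07), or 1.83 without replicate 3. Cebpb, a leucine zipper factor, had log2 levels of 11.95, 11.78 and 11.85 at 72 h and 11.40, 11.47 and 11.28 at 24 h, and its log2 change was 0.48 (adjusted p = 6.7e-04). Ddit3, the factor CHOP, had log2 levels of 9.71, 9.88 and 11.88 at 72 h and 9.17, 9.29 and 9.29 at 24 h. Its log2 change was 1.24 (adjusted p = 0.019) with replicate 3 and 0.55 (adjusted p = 0.0063) without it, and the call was lost without 24 h replicate 1 and in the fits of the 6 arrays or the 9 DMSO arrays.

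The aminoacyl-tRNA synthetases, several of which ATF4 induces, were not called by limma in either direction (0 of 19, with 2 lower at an unadjusted p under 0.05). Without replicate 3, 13 of 19 were lower, against 23.3% of all genes. Yars1, which charges tyrosine, had log2 levels of 9.93, 10.07 and 11.28 at 72 h and 10.95, 11.02 and 10.84 at 24 h, and its log2 change was -0.51 (adjusted p = 0.11) with replicate 3 and -0.94 (adjusted p = 2.2e-06) without it. ER chaperone and unfolded protein response genes were higher in 2 of 24 and lower in 2, against 11.6% and 16.4% of all genes. Without replicate 3 the counts were 3 and 9, against 14.4% and 23.3%. The higher members of this list were 5 without 72 h replicate 1 and 1 without 72 h replicate 2. Its lower members were 1 without 72 h replicate 1 and 1 without 24 h replicate 1. Atf6, a membrane sensor of misfolded proteins, had log2 levels of 11.11, 11.22 and 11.89 at 72 h and 10.20, 10.04 and 10.25 at 24 h, with a log2 change of 1.24 ± 0.15 (adjusted p = 2.8e-05). Dnajc3, a co-chaperone that restrains the kinase PERK, had log2 levels of 10.79, 11.10 and 11.66 at 72 h and 12.05, 11.78 and 12.23 at 24 h, a fall with a log2 change of -0.83 ± 0.19 (adjusted p = 0.0040), lost in the fit of the 6 arrays.

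Targets of NRF2, which guards against oxidants, were lower in 8 of 25 tested members and higher in 2, against 16.4% and 11.6% of all genes. Without replicate 3 the counts were 15 and 3, against 23.3% and 14.4%. The list mean had a log2 level of 9.51, 9.71 and 10.28 at 72 h and 10.08, 10.15 and 10.05 at 24 h. It was thus lower on replicates 1 and 2 of 72 h and not on replicate 3. Ugdh, which makes UDP-glucuronate, had log2 levels of 10.08, 10.40 and 10.31 at 72 h and 11.24, 11.18 and 11.11 at 24 h, and Gclc, the rate-limiting subunit of glutathione synthesis, had 9.24, 9.00 and 9.18 at 72 h and 10.08, 9.96 and 9.78 at 24 h. They fell on every 72 h array, by log2 changes of -0.91 ± 0.09 (adjusted p = 3.3e-06) for Ugdh and -0.80 ± 0.12 (adjusted p = 1.8e-04) for Gclc. Gsta1, a glutathione transferase, moved the other way, with log2 levels of 9.92, 9.62 and 10.00 at 72 h and 8.40, 8.76 and 8.48 at 24 h and a log2 change of 1.30 ± 0.17 (adjusted p = 6.6e-05). Hmox1, the heme oxygenase, had log2 levels of 4.09, 4.49 and 6.57 at 72 h and 5.80, 5.79 and 5.64 at 24 h. Replicate 3 lay above all other arrays there, and the log2 change was -0.69 (adjusted p = 0.26) with it and -1.45 (adjusted p = 2.9e-04) without it.

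Interferon-stimulated genes were higher in 7 of 24 tested members and lower in 4, against 11.6% and 16.4% of all genes, or 7 and 8 without replicate 3. Mx2, an antiviral GTPase, had log2 levels of 4.73, 3.74 and 6.35 at 72 h and 7.02, 7.12 and 7.42 at 24 h, and Usp18, which removes the ubiquitin-like ISG15 from proteins, had 4.87, 5.80 and 6.93 at 72 h and 7.40, 7.44 and 7.76 at 24 h. Their falls, with log2 changes of -2.25 (adjusted p = 0.0013) for Mx2 and -1.67 (adjusted p = 0.0022) for Usp18, were not called in the fit of the 6 arrays. Without replicate 3 the changes were -2.95 for Mx2 and -2.20 for Usp18. B2m, the light chain of class I antigen-presenting molecules, rose instead, with log2 levels of 15.32, 15.36 and 15.06 at 72 h and 14.78, 14.84 and 14.85 at 24 h and a log2 change of 0.42 ± 0.06 (adjusted p = 1.1e-04).

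Of 12 tested NF-kB, cytokine and chemokine genes, 1 was higher and 4 were lower, against 11.6% and 16.4% of all genes. Without replicate 3 the counts were 3 and 6, against 14.4% and 23.3%. Cxcl1, a chemokine that attracts neutrophils, had log2 levels of 6.34, 7.39 and 7.70 at 72 h and 9.63, 9.56 and 9.62 at 24 h, a fall with a log2 change of -2.46 ± 0.24 (adjusted p = 5.2e-06). Tnfaip3, a deubiquitinase that ends NF-kB signalling, had log2 levels of 7.80, 8.35 and 8.22 at 72 h and 9.20, 9.36 and 9.18 at 24 h. Icam1, an adhesion molecule for leukocytes and also an NF-kB target, was the 1 higher gene, with log2 levels of 12.82, 12.46 and 12.25 at 72 h and 11.30, 11.31 and 11.35 at 24 h and a log2 change of 1.19 ± 0.10 (adjusted p = 1.2e-06). Members of this list thus moved in both directions on every 72 h array.

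Matrix genes were higher in 8 of 37 tested members and lower in 5, against 11.6% and 16.4% of all genes. Without replicate 3 the counts were 12 and 7, against 14.4% and 23.3%. The higher count was 5 without 72 h replicate 2. Bgn, the proteoglycan biglycan, had log2 levels of 12.84, 13.41 and 12.98 at 72 h and 12.19, 12.34 and 12.23 at 24 h, with a log2 change of 0.82 ± 0.11 (adjusted p = 5.4e-05). Col14a1, a collagen that binds fibrils, had log2 levels of 9.30, 8.66 and 8.51 at 72 h and 10.35, 10.42 and 10.45 at 24 h, and Adamts1, a matrix protease, had 6.46, 8.03 and 7.02 at 72 h and 9.31, 9.32 and 9.29 at 24 h. Both fell on every 72 h array, by log2 changes of -1.58 ± 0.30 (adjusted p = 9.8e-04) for Col14a1 and -2.14 ± 0.26 (adjusted p = 3.3e-05) for Adamts1.

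Only 4 of 37 genes of proximal tubule function passed the filter on low values, so their count describes few of the list. Slc7a9, the cystine transporter of the brush border, had log2 levels of 2.55, 2.56 and 3.84 at 72 h and 5.52, 6.03 and 5.78 at 24 h. All its 72 h values were below the array median, and the log2 change was -2.79 ± 0.35 (adjusted p = 3.5e-05), or -1.65 with values below the median set to it, and -3.22 without replicate 3. Mme, the peptidase neprilysin, had log2 levels of 5.28, 5.16 and 6.78 at 72 h and 7.13, 7.41 and 6.56 at 24 h. Replicate 3 overlapped the 24 h arrays, and the log2 change was -1.29 (adjusted p = 0.0062) with it, -1.81 without it, and not called in the fit of the 6 arrays. Aqp1, the water channel of the proximal tubule, did not pass the filter and is named because of its values: its log2 level was 7.84, 7.00 and 3.09 at 72 h, against 2.11, 2.40 and 2.12 at 24 h. It was high on replicates 1 and 2 of 72 h and near background on the other 4 arrays, and it was 2.08 to 2.12 on the monuron arrays of 72 h.

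The 6 h arrays show how the 72 h levels stood in the longer course of the culture. The comparison of 24 h with 6 h uses the same 24 h arrays, so its values are given only side by side. It called 4800 of 9042 genes (53.1%), 24.8% higher and 28.3% lower at 24 h. Centring the arrays on their medians gave a median log2 change of all genes of -0.15 in place of -0.02, and 1666 higher and 3242 lower genes in place of 2239 and 2561. Replication genes were lower in 40 of 43 at 24 h than at 6 h, with a median log2 change of -1.17, before the later median of -0.41. Lysosome genes were higher in 23 of 34 with a median of 0.70, before the later 0.16. Cholesterol genes had a median of 0.64 in the earlier interval and -1.09 in the later, and ribosomal protein genes -0.11 and 0.15. Immediate early genes had a median of 0.78 in the earlier interval and -0.47 in the later. Egr2 shows the shape of such a course, with mean log2 levels of 6.68 at 6 h, 8.59 at 24 h and 6.32 at 72 h, while Mcm6 had 12.14, 10.89 and 10.26.

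**Figure D4:**
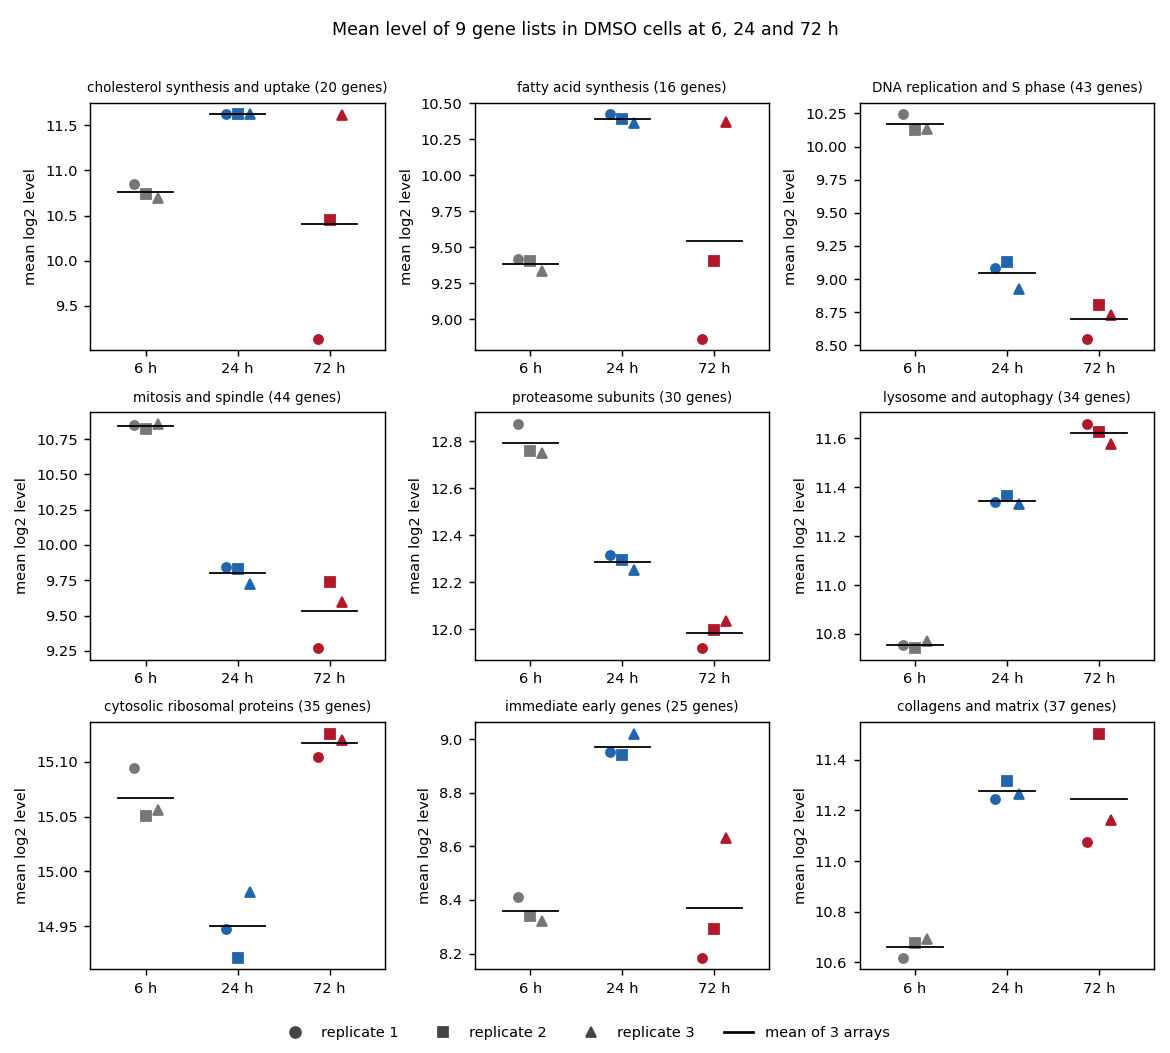
Each panel plots the mean log2 level (vertical axis) of 1 gene list on the DMSO arrays of 6 h, 24 h and 72 h, 3 arrays each, with bars at the means. Replication genes step down at each time, lysosome genes step up, and cholesterol synthesis and immediate early genes peak at 24 h.

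The cells labelled monuron give another interval from 24 h to 72 h, measured on other arrays. In them 5484 of 9042 genes (60.7%) changed, 28.6% higher and 32.0% lower. The difference between the DMSO late change and the monuron late change passed the test in 3423 genes (37.9%), with the DMSO value above the monuron value in 1768 (19.6%) and below it in 1655 (18.3%). After each array was centred on its median, 1366 genes lay above and 1875 below. Without 72 h replicate 3 of DMSO the difference passed in 4411 genes (48.8%), 23.1% above and 25.7% below.

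The fall of the cholesterol genes was not told apart from that in monuron cells: the difference passed in 0 of 20 members in limma and in 0 at an unadjusted p under 0.05, with median log2 changes of -1.09 in DMSO and -1.41 in monuron cells, and in 6 of 20, all with a deeper fall in DMSO cells, without replicate 3. For Mvk the difference was -0.24 ± 0.68 (adjusted p = 0.82) between log2 changes of -2.34 in DMSO and -2.11 in monuron cells. Ribosomal protein genes had a median log2 change of 0.15 in both, and the difference passed in 1 of 35, or 3 of 35 without replicate 3. Junb is a single gene of this kind, with log2 changes of -1.27 in DMSO and -1.33 in monuron cells and a difference of 0.06 ± 0.17 (adjusted p = 0.82). A difference that misses the threshold does not show that the changes were the same.

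Other groups did differ. Over all genes the DMSO value lay above in 19.6% and below in 18.3%, or 23.1% and 25.7% without 72 h replicate 3 of DMSO. The difference passed with the DMSO value above in 26 of 44 mitotic genes and below in 1, or 23 and 1 without 72 h replicate 3 of DMSO, with median log2 changes of -0.24 in DMSO and -1.01 in monuron cells. Mki67 had log2 changes of -0.16 in DMSO and -1.29 in monuron cells, a difference of 1.13 ± 0.18 (adjusted p = 2.3e-04). In fatty acid oxidation 12 of 16 genes lay above and 1 below, or 12 and 2 without it, with median log2 changes of 0.0038 in DMSO and -0.79 in monuron cells. Ribosome biogenesis and MYC target genes lay below in 35 of 45 and above in 1, or 36 and 2 without it, with medians of -0.05 in DMSO and 0.74 in monuron cells. ER chaperone genes lay below in 15 of 24, or 18 without it, and tRNA synthetases in 11 of 19, or 18 without it, with 0 above in each. ATF4 response genes lay below in 9 of 35, nearer to the 18.3% of all genes, and above in 2, or 29 and 2 without it.

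Single genes mark the difference. Egr2 had log2 changes of -2.26 in DMSO and 0.09 in monuron cells, a difference of -2.36 ± 0.44 (adjusted p = 7.6e-04). Cd55 had 2.82 in DMSO and 0.60 in monuron cells, a difference of 2.21 ± 0.30 (adjusted p = 7.8e-05), and Ccng2 had 0.60 in DMSO and -0.55 in monuron cells, opposite in sign. Col14a1 fell in both, by far less in DMSO cells, with log2 changes of -1.58 in DMSO and -5.43 in monuron cells. Fgf21, a hormone induced by the ATF4 pathway, stayed at background in DMSO cells (mean log2 level 2.40 at 72 h and 2.27 at 24 h), while monuron cells had 9.44 at 72 h and 3.56 at 24 h. Sar1a, a GTPase of vesicles that leave the ER, had log2 changes of -0.73 in DMSO and 0.95 in monuron cells. Ddx39a, an RNA export helicase, had -1.01 in DMSO and 0.48 in monuron cells.

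Some of the clearest differences lay in genes that did not pass the test in DMSO cells. Gla, the lysosomal alpha-galactosidase, had log2 changes of -0.27 in DMSO (adjusted p = 0.093) and -2.30 in monuron cells (adjusted p = 1.7e-09), a difference of 2.02 ± 0.17 (adjusted p = 3.1e-06). Ccn5, a matrix protein of the CCN family, had -0.55 in DMSO and -4.10 in monuron cells, a difference of 3.54 ± 0.31 (adjusted p = 7.5e-06), or 1.93 with values below the array median set to it. Reep6, which shapes ER membranes, had mean log2 levels of 2.10 at 72 h and 2.26 at 24 h in DMSO cells, and 5.95 at 72 h and 2.16 at 24 h in monuron cells.

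**Figure D5:**
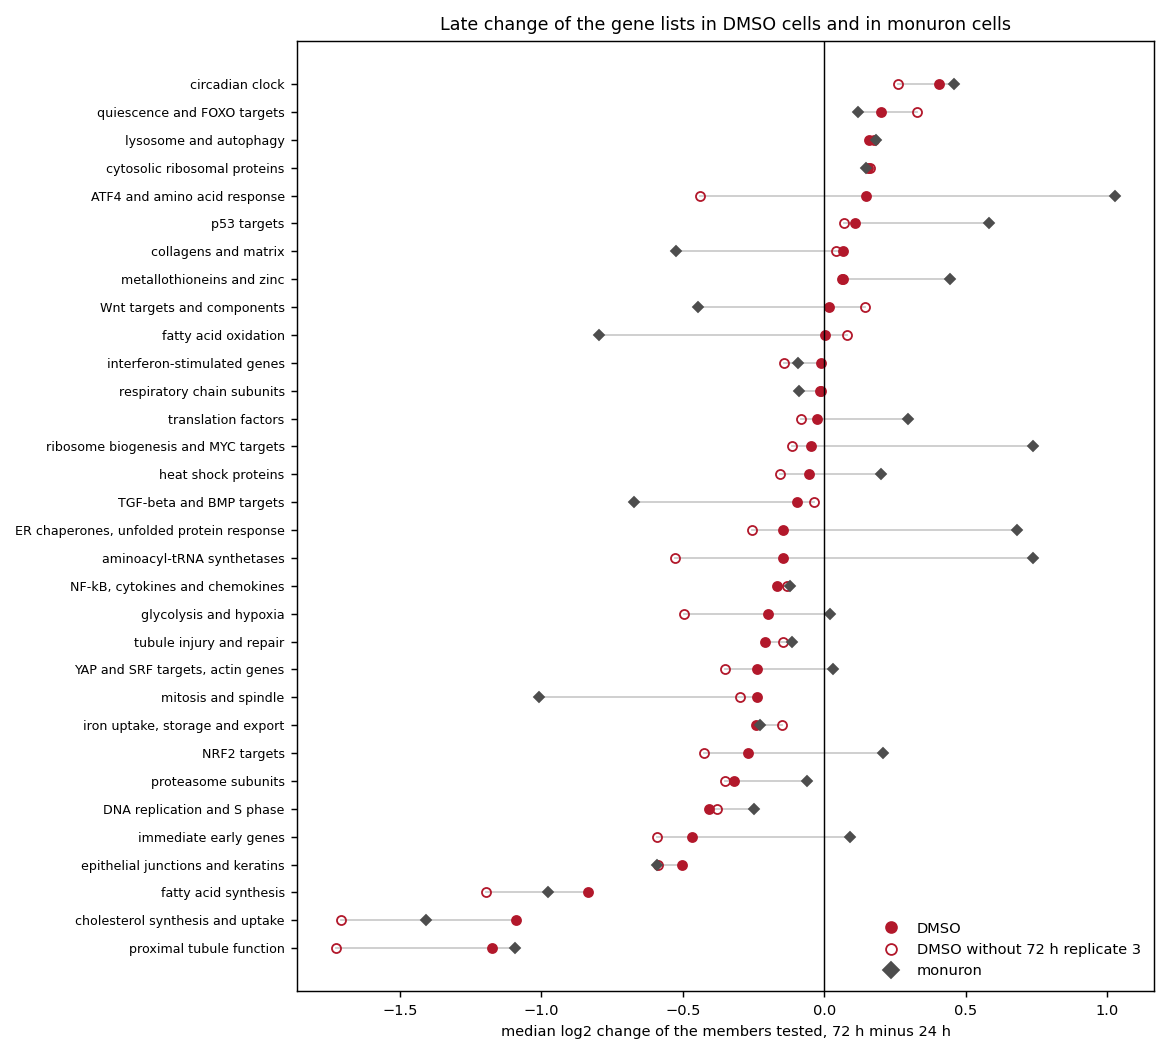
The points give the median log2 change from 24 h to 72 h (horizontal axis) of the tested members of 32 gene lists in DMSO cells (filled red), DMSO cells without 72 h replicate 3 (open red) and monuron cells (grey diamonds). Cholesterol and fatty acid synthesis lie far to the left in all 3, while ATF4 response, tRNA synthetase, ER chaperone and ribosome biogenesis genes lie on the right in monuron cells alone, except that the ATF4 median of all DMSO arrays is 0.15.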

How the data were processed

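The deposited series matrix holds log2 expression values from rat Affymetrix arrays, made by the authors with GCRMA, per the submitters' processing notes; its version is not given in the sources used here. No further normalization was applied. Of 31099 probe sets 57 controls were left out, and 20826 had 1 gene symbol in the platform annotation, 436 several and 9780 none; each of 14217 genes was represented by the probe set whose 18 arrays averaged highest. Genes above the array median on at least 3 of the 18 arrays (9042) were tested. All 18 arrays of NRK-52E cells, 6 groups of 3, were fitted together in limma 3.58.1 under R 4.3.3 (lmFit, eBayes with a mean trend), with Benjamini-Hochberg adjustment and a threshold of 0.05, so every adjusted p and SE comes from that fit unless left-out arrays are named. The code was tested on simulated data. The labels call replicates biological, with 3 studies at each time. The p-values rest on an estimate of the spread shared by all 18 arrays, not on that of the compared arrays alone. The 72 h DMSO arrays differed among themselves more than the 24 h DMSO arrays did. Fitting only these 6 arrays called 897 genes in place of 2526.

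Named genes were the 12 largest changes in each direction among genes called with and without 72 h replicate 3 whose groups did not overlap, up to 4 members of each of 32 gene lists with the smallest adjusted p, a fixed panel, and the 5 clearest differences from monuron in each direction, of which the text names part. The comparison and the lists were chosen with earlier results of these data known. Same-numbered arrays did not deviate together. Alternatives left out each array, restricted the arrays, dropped the filter, centred the arrays, averaged probe sets, limited low values, added a replicate block or weighted arrays.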

Additional observations from a re-analysis of the deposited data

Results flagged for a closer look

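The late change from 24 h to 72 h in DMSO cells differed from that in cells labelled monuron, tested as a difference of the 2 changes in the fit of 18 arrays, in 3423 of 9042 genes. Among genes named in the report, those given here passed that test at an adjusted p under 0.05, with the DMSO change minus the monuron change on the log2 scale.

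The DMSO change lay above the monuron change among the strongly rising genes Klf15 (1.05), Cd55 (2.21), Fxyd1 (2.21), Rtn1 (2.88), Klhl29 (1.27), Exph5 (1.81) and Mtus2 (2.21). It also lay above in the metabolic genes Pdk4 (1.19), Eno1 (0.47), Ldha (0.32) and Ndufa1 (0.41), and in the cell cycle genes Ccnb1 (0.56), Cenpe (1.36) and Mki67 (1.13). The quiescence genes Txnip (0.85) and Ccng2 (1.14) and the lysosomal genes Lamp2 (0.17), Hexa (0.62), Lgmn (0.56) and Gla (2.02) had positive differences too. So had Krt8 (0.83), Nupr1 (1.07), Bgn (0.45), Col14a1 (3.85) and Ccn5 (3.54).

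The DMSO change lay below the monuron change among the strongly falling genes Gpc3 (-2.68), Mbnl3 (-1.35) and Acta1 (-2.61). Growth and actin genes with a negative difference were Egr2 (-2.36), Dusp1 (-0.61), Myh9 (-0.46), Flna (-0.30), Pdlim7 (-1.27), Tgfb3 (-0.51), Tgfb2 (-0.37) and Lama3 (-2.44). In protein synthesis, folding and turnover they were Eif4a1 (-0.35), Psmd2 (-0.31), Psmc5 (-0.58), Atf6 (-0.81), Dnajc3 (-1.88), Sar1a (-1.68) and Reep6 (-3.95). Further negative differences were those of Slc2a1 (-1.35), Yars1 (-1.25), Hmox1 (-2.20), Cxcl1 (-1.50), Ddx39a (-1.49) and Fgf21 (-5.76). The DMSO levels of Reep6 and Fgf21 lay below the array median at both times. With values below the median set to it, the differences were -1.82 for Reep6, -5.31 for Fgf21, 1.93 for Ccn5 and 2.59 for Col14a1.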

How the results depend on the processing

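The number of genes called between 72 h and 24 h, 2526 in the fit of all 18 arrays, was 1735 to 3403 when 1 array of the comparison was left out, lowest without 24 h replicate 1 and highest without 72 h replicate 3. It was 897 with only the 6 arrays of the comparison, 1661 with only the 9 DMSO arrays and 1373 with array weights, whose estimation stopped before its tolerance. The first 2 fits took the spread from fewer arrays, and the cause of these lower counts was not tested. Alternatives chosen after seeing the data gave 3841 without replicate 3 of both 72 h groups and 2571 with the 6 arrays less 72 h replicate 3. With the replicate number as a block the count was 2494, while the deviations of same-numbered arrays from their group means correlated at 0.09, -0.05 and -0.02, so the numbers did not pair the arrays. The block gave 3390 for the difference from monuron and 4779 for 24 h against 6 h.

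Leaving out 1 array gave 2777 to 4411 for the difference from monuron, against 3423, and 4197 to 5327 for 24 h against 6 h, against 4800. Of 91 called genes named in the text, 73 kept direction and call in all 14 planned settings. The sign turned in 5 genes that were not called with all arrays. Over the fits that each left out 1 array, the log2 change ran from -0.60 (without 72 h replicate 3) to 0.40 for Atf4, with -0.01 without 24 h replicate 2, and from -2.62 (without 72 h replicate 3) to 0.19 (without 72 h replicate 1) for Atf3. It ran from -1.59 to 1.33 for Trib3, from -0.81 to 0.84 for Asns and from -0.018 to 0.19 for Fgf21, lowest without 72 h replicate 3 in each, and both added alternatives without that array gave the same -0.60, -1.59, -0.81 and -0.018. Array weights gave -0.15 for Atf4, -0.31 for Trib3 and -0.076 for Asns, and setting low values to the array median gave -0.0046 for Fgf21. The number of arrays, and signals near background, limit the precision.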

Other observations

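Other gene groups had few calls. Of 13 tested circadian clock genes, 2 were higher and 1 lower at 72 h than at 24 h, with a median log2 change of 0.41. The counts were 2 and 2 without 72 h replicate 3, and 5 were higher without 72 h replicate 1. Of 18 p53 targets, 3 were higher and 3 lower, or 2 and 4 without 72 h replicate 3. The higher members were 1 without 72 h replicate 2 or any 1 of the 24 h arrays, and the lower members 1 without 24 h replicate 1. Heat shock proteins had 0 higher and 3 lower of 18, or 5 and 6 without 72 h replicate 3, and 5 were lower without 24 h replicate 3. Wnt targets and components had 3 higher and 3 lower of 13, or 4 and 3 without 72 h replicate 3. Genes of iron uptake and storage had 0 higher and 2 lower of 10, or 1 and 2 without 72 h replicate 3, and the lower members were 1 without any 1 of the 24 h arrays. Metallothionein and zinc genes had 1 higher and 1 lower of 5, or 2 and 1 without 72 h replicate 3, and 0 higher without 24 h replicate 3. Tubule injury and repair genes had 2 higher and 3 lower of 11, or 3 and 5 without 72 h replicate 3. Their higher members were 1 without 72 h replicate 2 or any 1 of the 24 h arrays, and their lower members 1 without any 1 of the 24 h arrays. Over all genes 11.6% were higher and 16.4% lower, or 14.4% and 23.3% without 72 h replicate 3.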
